A study of Mus musculus with 4 samples.

Results

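Prg4 encodes lubricin, the mucin-like glycoprotein that coats gliding surfaces in joints and tendons. The gene was taken as the single feature named Prg4 (ENSMUSG00000006014, on mouse chromosome 1 in the RefSeq gene table), 1 of 33696 genes counted in each library. It was followed through every cell type that marker genes could name in 4 single-cell libraries of mouse Achilles tendon. Its level is given as UMIs (unique molecular identifiers, each counting 1 captured RNA molecule) per 10000 UMIs of the cells named.

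Lubricin is secreted by synovial lining fibroblasts and by the chondrocytes of the superficial zone of articular cartilage, and tendon cells make it where tendons slide or press against bone. It lowers friction at these surfaces and keeps cells and proteins from sticking to them, and loss of the gene causes joint failure in mice and in people. Its carboxyl end carries a hemopexin-like domain and its amino end carries somatomedin B-like domains, and the stretch between them is heavily glycosylated. In cartilage its transcription is known to depend on the factor CREB5 and on TGF-beta and EGF-family signals.

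The study compared injured with uninjured Achilles tendon at 2 ages. By the labels, the adult injury library came from a mouse of 6 to 8 weeks with tendon injury. The adult control library was labelled as from an uninjured mouse of the same age range. The neonate injury library was labelled as from a mouse at postnatal day 3 with tendon injury. The neonate control library was labelled as from an uninjured mouse at the same day. Whether these are ages at injury or at collection is not given. Strain, genotype, sex, the way of injuring, the time between injury and collection and the number of mice in a library are not given in the sources used here. Tissue was digested with collagenase before the droplets were loaded, so a cell type that resists digestion could be under-counted. With 1 library for each group, nothing could be tested between groups, and group differences cannot be told apart from differences between libraries.

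After filtering, 4454 adult injury cells, 5814 adult control cells, 13112 neonate injury cells and 9559 neonate control cells remained. The deposited libraries held 71623116, 68644322, 100169054 and 128626912 UMIs in the same order, with a median of 10190.5, 9538, 5552.5 and 10338 UMIs per kept cell. Intervals in brackets are exact 95% intervals and cover counting error only. In the deposited libraries 123 barcodes occurred in more than 1 library, and 92 of them were kept, in 184 cells. Among fibroblast-lineage cells, 90.8% in adult injury and 94.9% in adult control held Xist and no Y-linked UMIs. In neonate injury 76.1% did so and 14.3% held Y-linked UMIs and no Xist, so cells with the markers of either sex were present. In neonate control 85.6% held Y-linked UMIs and no Xist, so the neonatal libraries differed in sex markers as well as in injury.

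Prg4 was unevenly spread between libraries and between cells. The kept cells held 22044 Prg4 UMIs in adult injury, 337671 in adult control, 2810 in neonate injury and 29679 in neonate control. Over all cells the level was 3.22 per 10000 in adult injury, 53.6 in adult control, 0.338 in neonate injury and 2.67 in neonate control. The adult control library thus held by far the most lubricin RNA and the neonate injury library the least. The 1% of cells with the most Prg4 held 45.9% of its UMIs in adult injury, 41.4% in adult control, 57.6% in neonate injury and 43.8% in neonate control, so a small number of cells carried much of the total in each library.

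RNA freed from broken cells enters every droplet, and so the Prg4 found in cells of the blood and immune system was used as a measure of it. In neutrophil-like, T or NK-like, B lineage-like, mast-like and erythroid-like cells together, Prg4 stood at 0.114 [0.0640 to 0.189] per 10000 in 257 adult injury cells and 0.793 [0.579 to 1.06] in 98 adult control cells. It stood at 0.0434 [0.0118 to 0.111] in 241 neonate injury cells and 0.0643 [0.0393 to 0.0993] in 363 neonate control cells. A Prg4 UMI was found in 4.28%, 34.7%, 1.66% and 5.23% of these cells in the same order, at median depths of 3390, 5126.5, 3074 and 6023 UMIs. The free-RNA level was thus highest in the library with the most Prg4, and adult control was the library in which such cells often held a Prg4 UMI. The neonate injury level rests on 4 UMIs, and its interval overlaps those of neonate control and adult injury. Macrophage-like cells, counted apart, held 0.133, 0.680, 0.00658 and 0.120 per 10000 in the same order.

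Synovial lining-like cells had the highest summed Prg4 level of the types with 5 or more cells in every library, with a lead that was narrow in neonate control. These cells were named by Clic5, Tspan15, Hbegf, Htra4, Cd55, Has1 and Itga6, all 7 of which were detected in each library, and Prg4 was kept out of the clustering. Prg4 reached 151 [143 to 160] per 10000 in the 5 adult injury cells, 842 [838 to 846] in 77 adult control cells, 14.4 [13.3 to 15.5] in 80 neonate injury cells and 28.1 [27.3 to 29.0] in 107 neonate control cells. The adult control cells thus stood highest and the neonate injury cells lowest. In neonate control the chondrocyte-like cells followed at 23.7 per 10000, and the order of the pair depended on the measure and on the clustering. The mean over cells was 27.0 per 10000 in synovial lining-like and 28.7 in chondrocyte-like cells there, and the median cell 2.21 and 9.21. The neonate control synovial lining-like level was 18.1 at the finer clustering of resolution 2, 18.9 when cells were chosen one by one on their marker UMIs and 14.6 when each library was clustered alone, all below the 20.6 to 24.0 of chondrocyte-like cells over the alternatives. The summed level of the 7 markers was 51.7, 71.0, 65.2 and 65.4 per 10000 in the same order, a much narrower range than that of Prg4.

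In the adults each synovial lining-like cell held Prg4, and in the neonates many did not. The median cell stood at 150 per 10000 in adult injury, 777 in adult control, 1.62 in neonate injury and 2.21 in neonate control. The cell at the 90th percentile stood at 39.7 in neonate injury and 88.3 in neonate control, so the neonatal clusters mixed cells rich in Prg4 with cells that had little or none. A Prg4 UMI was found in 53.8% of neonate injury and 63.6% of neonate control cells of this type, and in 32.5% and 44.9% after each cell was thinned to 1000 UMIs. These shares stood far above the 1.66% and 5.23% in blood and immune cells of the same libraries. Though only 0.112%, 1.32%, 0.610% and 1.12% of the cells, the synovial lining-like cells supplied 6.01% of the Prg4 UMIs of adult injury, 42.1% of adult control, 25.6% of neonate injury and 14.1% of neonate control.

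**Figure D1:**
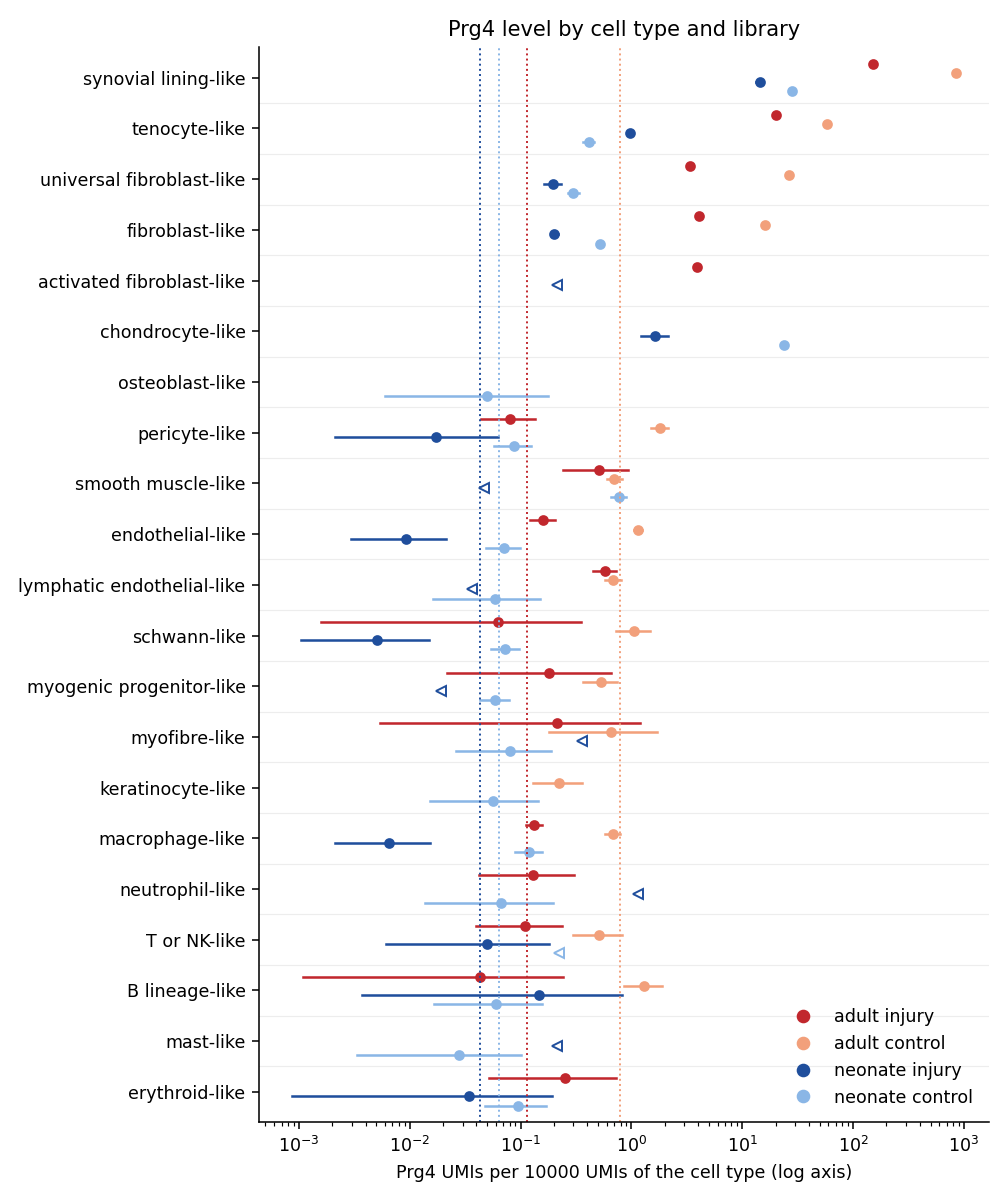
Prg4 level (UMIs per 10000 UMIs of the cell type, log axis) in each cell type with 5 or more cells, for the adult injury, adult control, neonate injury and neonate control libraries. Points are summed levels, bars are exact 95% intervals for counting error, open triangles mark the limit that a count of 0 allows (3 UMIs), and dotted lines give each library's level in blood and immune cells. Synovial lining-like cells lie farthest right in each library, and most types below the chondrocyte-like row lie near or left of the dotted line of their own library.

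Tenocyte-like cells, the tendon cells proper, were the next group in the adults. They were named by Tnmd, Scx, Mkx, Fmod, Kera, Thbs4, Cilp2 and Comp, all 8 of which were detected in every library. Prg4 stood at 20.3 [19.6 to 21.0] per 10000 in 118 adult injury cells, 57.7 [57.38 to 57.96] in 2301 adult control cells, 0.977 [0.921 to 1.04] in 1717 neonate injury cells and 0.412 [0.365 to 0.462] in 740 neonate control cells. Adult tenocyte-like cells of either condition thus stood well above neonatal ones. Because they were many, they held 46.4% of all Prg4 UMIs of the adult control library, more than the synovial lining-like cells. They held 15.1% in adult injury, 40.2% in neonate injury and 0.967% in neonate control.

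Nearly every adult control tenocyte-like cell held Prg4, with a UMI in 97.3% of cells and in 84.4% after thinning to 1000 UMIs. In adult injury the shares were 86.4% and 42.4%. In neonate injury they were 26.0% and 7.40%, and in neonate control 20.3% and 3.24%. Thinned blood and immune cells held a Prg4 UMI in 2.34% of adult injury, 12.2% of adult control and 0.275% of neonate control cells, and in none of the 241 neonate injury cells, which allows a share of up to 1.24%. The median tenocyte-like cell stood at 5.05 per 10000 in adult injury and 44.2 in adult control, and at 0 in both neonatal libraries. The top 10% of tenocyte-like cells held 71.8% of the group's Prg4 in adult injury, 33.9% in adult control, 70.9% in neonate injury and 73.5% in neonate control. Prg4 was thus more evenly spread over tenocyte-like cells in adult control than in adult injury. The neonatal shares rest on 0.658 UMIs per cell in neonate injury and 0.388 in neonate control, and counts so sparse give a high share for any gene.

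Markers of the synovial lining were also present at a low level in tenocyte-like cells, summing to 2.71 per 10000 in adult injury, 6.59 in adult control, 1.66 in neonate injury and 2.33 in neonate control. Clic5 and Tspan15 were at 0 in adult injury. In tenocyte-like cells with no UMI of Clic5, Tspan15 or Htra4, a split made after the data had been seen, Prg4 still stood at 16.5 per 10000 in adult injury, 48.5 in adult control, 0.979 in neonate injury and 0.424 in neonate control. In the cells that did hold such a UMI it stood at 73.8 per 10000 in adult injury, where 6 cells held 805 of the 3322 UMIs, and at 70.2 in adult control, where 879 of the 2301 cells did. In the neonates it stood at 0.927 in 33 neonate injury cells and 0.231 in 46 neonate control cells. Adult tenocyte-like cells with those RNAs thus held more Prg4 than those without them, and the cells without them still held much of it.

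**Figure D2:**
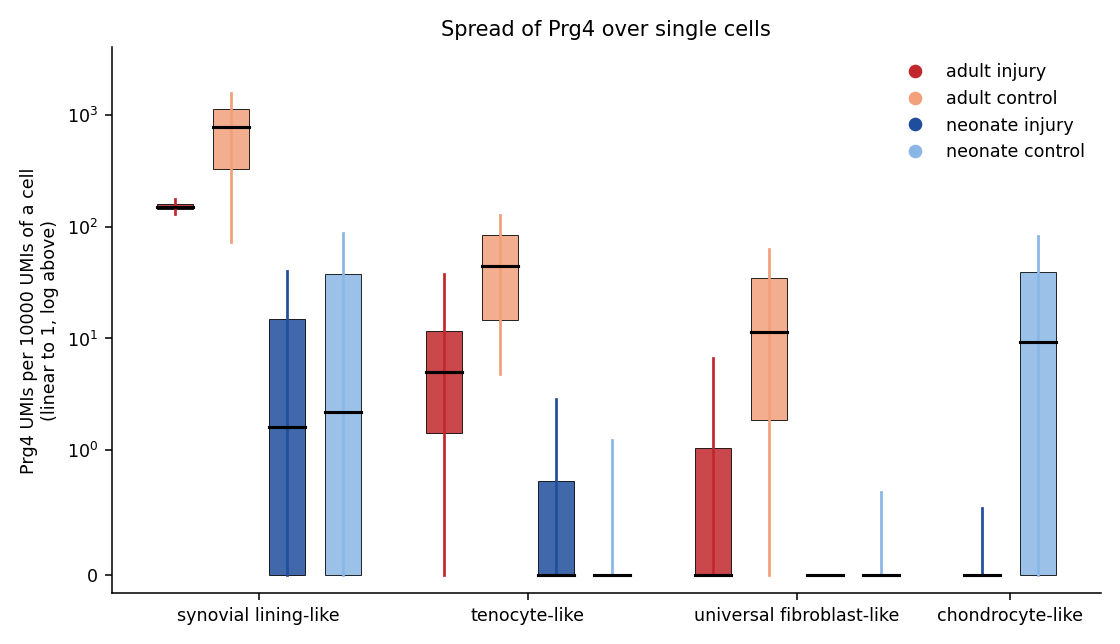
Prg4 in single cells (UMIs per 10000 UMIs of a cell, linear to 1 and logarithmic above) for synovial lining-like, tenocyte-like, universal fibroblast-like and chondrocyte-like cells of each library with 5 or more such cells. Boxes span the 25th to 75th percentile, the black line is the median and whiskers reach the 10th and 90th percentile. The adult control boxes stand highest in the types that adult control has, the adult injury synovial lining-like box rests on 5 cells, and the median is 0 in the neonatal tenocyte-like and universal fibroblast-like cells.

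Tenocyte-like cells fell into 6 clusters that differed several-fold in Prg4. In the adult control library the cluster led by Clu, Kcnq5 and Spp1 held 75.6 per 10000 in 643 cells and the cluster led by Angptl7, Cilp2 and Chad held 72.7 in 1037 cells. The cluster led by Fmod, Cpxm2 and Aldh1a1 held 11.9 in 375 cells, and that led by Col22a1, Crispld1 and Kirrel3 held 10.0 in 246 cells. The first 2 clusters thus stood about as high as each other and well above the other two. Chad and Cilp2 encode matrix proteins of cartilage-like tissue, Clu encodes a secreted chaperone, and Col22a1 encodes a collagen known from the muscle-tendon junction. The Clu-led cluster also had the synovial lining marker Htra4 among its 10 leading genes. A synovial lining marker was found in 38.9% of its cells on average and a tenocyte marker in 68.4%. In the Angptl7-led cluster these shares were 19.2% and 84.2%. The Clu-led cluster held 58293 of the 156690 Prg4 UMIs of adult control tenocyte-like cells.

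In the neonates the cluster led by Col11a2, Kera and Col2a1 held 1.10 per 10000 in 1426 neonate injury cells and 0.629 in 149 neonate control cells. The cluster led by Tnmd, Chodl and Rgs16 held 0.125 in 291 neonate injury cells and 0.346 in 591 neonate control cells. Within the neonatal tenocyte-like cells Prg4 was therefore higher in the cluster that carried collagen II and XI RNA than in the tenomodulin-led cluster, in both libraries.

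**Figure D3:**
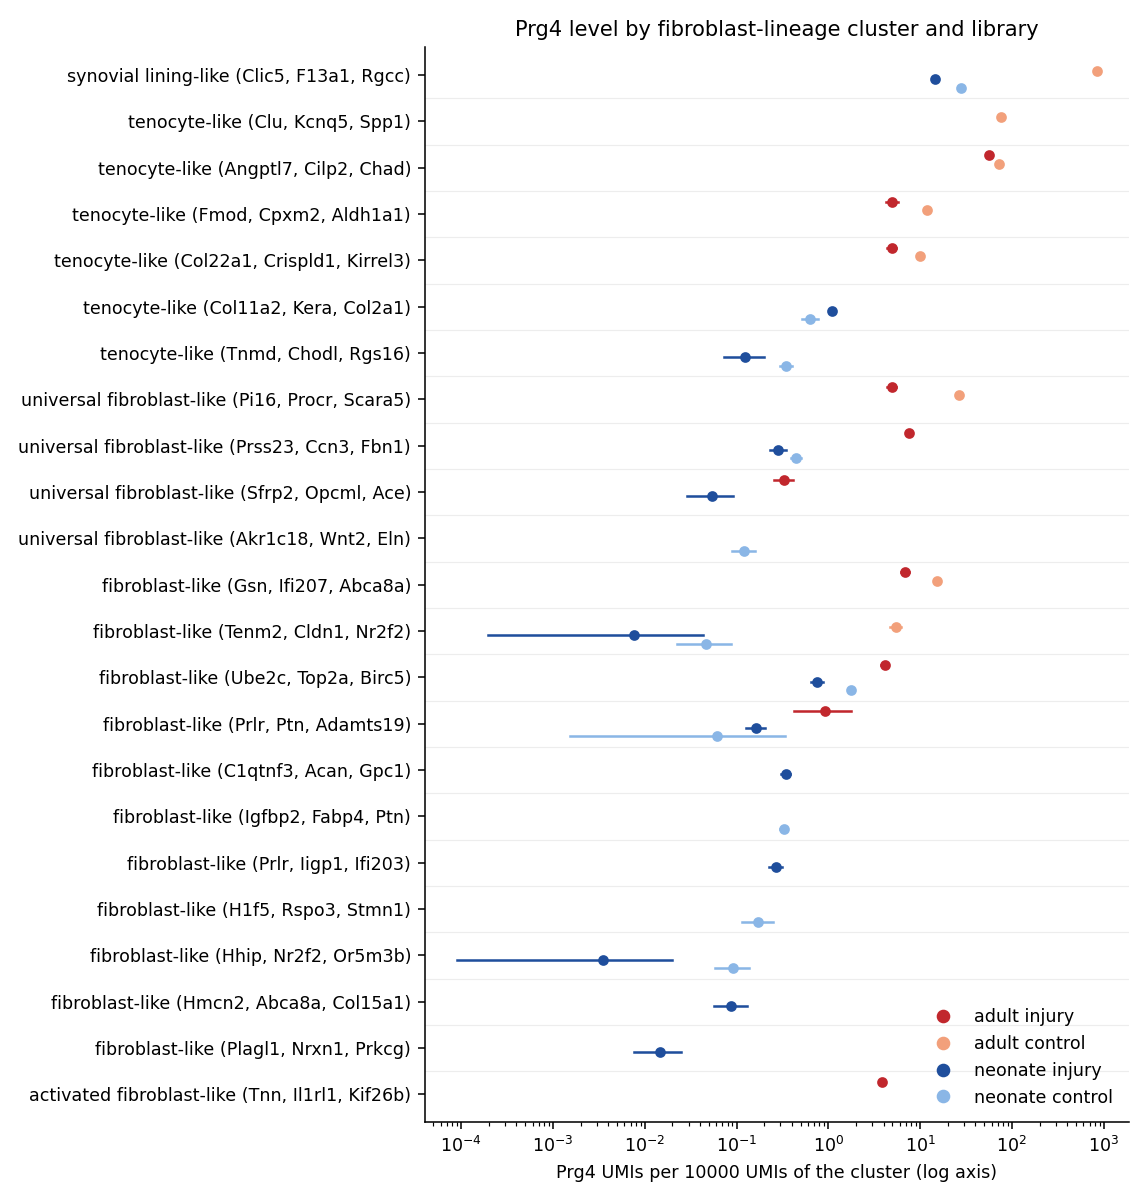
Prg4 level (UMIs per 10000 UMIs of the cluster, log axis) in each fibroblast-lineage cluster with 20 or more cells, labelled by its type and 3 leading genes, for the adult injury, adult control, neonate injury and neonate control libraries. Points are summed levels and bars are exact 95% intervals for counting error. The adult points lie to the right of the neonatal points in every cluster that holds both, and the synovial lining-like cluster and the Clu-led and Angptl7-led tenocyte-like clusters hold the highest adult control levels.

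Universal fibroblast-like cells, marked by Pi16, Dpp4, Sema3c, Ly6c1, Anxa3 and Cd34, are fibroblasts of loose connective tissue. They held Prg4 at 3.41 [3.23 to 3.59] per 10000 in 204 adult injury cells, 26.3 [26.0 to 26.7] in 549 adult control cells, 0.194 [0.161 to 0.232] in 887 neonate injury cells and 0.2995 [0.266 to 0.336] in 662 neonate control cells. Their level was 28.8 [18.0 to 53.4] times the free-RNA level in adult injury and 32.8 [24.8 to 45.5] times it in adult control. It was 4.00 [1.71 to 16.7] times it in neonate injury and 4.55 [2.96 to 7.74] times it in neonate control. The neonate injury fold is poorly fixed, because the free-RNA level there rests on 4 UMIs. The remaining fibroblast-like clusters held 4.04, 16.0, 0.201 and 0.524 per 10000 in the order adult injury, adult control, neonate injury and neonate control. That group is described only by these levels, because 4 of its 11 clusters had more markers of another type than of their own among their 10 leading genes.

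Activated fibroblast-like cells, marked by Lrrc15, Cthrc1, Kif26b, Adam12, Postn and Acta2, were almost confined to the adult injury library. Their 1381 cells held Prg4 at 3.88 [3.82 to 3.95] per 10000, 32.9 times the free-RNA level, and supplied 63.5% of all Prg4 UMIs of that library. They thus held most of the lubricin RNA captured from the injured adult tendon, in a minority of their number. The median cell stood at 0, and the 139 cells richest in Prg4 held 80.3% of its UMIs in this type. A Prg4 UMI was found in 49.0% of them at a median depth of 23569 UMIs and in 15.9% after thinning to 1000 UMIs, against 4.28% and 2.34% in blood and immune cells. Adult control had 1 such cell, and the 18 neonate injury and 2 neonate control cells held no Prg4 UMI. A count of 0 in the 18 neonate injury cells allows a level of up to 0.214 per 10000.

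Chondrocyte-like cells, the cells of cartilage, were the main Prg4 source of the uninjured neonate. They held 1.63 [1.23 to 2.12] per 10000 in 36 neonate injury cells and 23.7 [23.4 to 24.0] in 884 neonate control cells, and supplied 1.99% of the Prg4 UMIs of neonate injury and 76.4% of those of neonate control. Of the 36 neonate injury cells only 4 held a Prg4 UMI, and 1 of them held 34 of the 56 UMIs. Without that cell the level was 0.649 [0.407 to 0.983] per 10000, and over the alternatives it ran from 0.648 to 8.30 on 11 to 77 cells. It thus lay below the neonate control level, at 20.6 to 24.0, under each alternative, but its size is poorly fixed. Adult injury had 1 such cell and adult control none. Synovial lining markers summed to 1.55 per 10000 in the neonate injury cells and 2.61 in the neonate control cells, far under the 65.2 and 65.4 in synovial lining-like cells of the same libraries.

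Clustering the chondrocyte-like cells again, a step added after the data had been seen, split the neonate control cells into 6 sub-clusters that spanned a wide range of Prg4. The sub-cluster led by Msmp, Cilp and Tesc held 58.8 [57.8 to 59.9] per 10000 in 244 cells and 54.5% of the chondrocyte-like Prg4, and that led by Csmd3, Il1rapl1 and Itgbl1 held 30.2 [29.5 to 30.8] in 291 cells. Cycling cells led by H1f5, Top2a and Stmn1 held 16.1 in 89 cells. The 95 cells led by Aspn, Tnmd and Ibsp held 3.20, and the 123 cells led by the haemoglobin gene Hbb-bs, Ntm and Ucma, with Hba-a1 also among their 10 leading genes, held 1.18. The 42 cells led by Col10a1, the collagen of hypertrophic cartilage, held 0.125 [0.0623 to 0.223], near the free-RNA level of 0.0643 [0.0393 to 0.0993]. Prg4 was thus lowest where Col10a1 stood at 53.1 per 10000. Of the 36 neonate injury cells, 28 fell in that Col10a1 sub-cluster, where they held 1 Prg4 UMI, and 3 fell in the Msmp sub-cluster, where they held 31.7 per 10000. The lower chondrocyte-like level in neonate injury therefore came with a different mix of cartilage cells.

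Creb5, which encodes a factor known to switch on lubricin in bovine superficial-zone chondrocytes, ran in the same order over these sub-clusters. It stood at 14.8 per 10000 in the Msmp sub-cluster, 8.13 in the Csmd3 sub-cluster, 4.40 in the cycling cells, 4.15 in the Aspn sub-cluster, 1.52 in the Hbb-bs sub-cluster and 0.795 in the Col10a1 sub-cluster. The 6 points share 1 library, and the sub-clusters were made from genes that included Creb5.

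**Figure D4:**
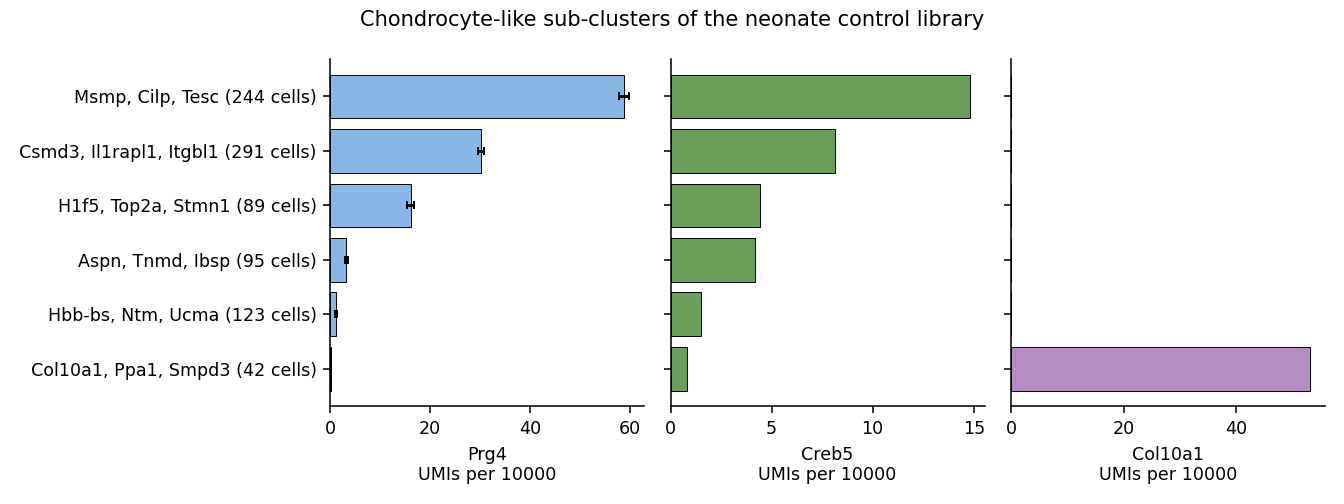
Levels of Prg4, Creb5 and Col10a1 (UMIs per 10000 UMIs, linear axes from 0) in the 6 sub-clusters of neonate control chondrocyte-like cells, labelled by leading genes and number of cells. Bars on Prg4 are exact 95% intervals for counting error. Prg4 and Creb5 both decline from the Msmp sub-cluster at the top to the Col10a1 sub-cluster at the bottom, the only one in which Col10a1 is above the axis line.

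Outside these groups Prg4 mostly stood close to the free-RNA level. Schwann-like cells held 0.0625, 1.05, 0.00508 and 0.0731 per 10000, and endothelial-like cells 0.160, 1.14, 0.00918 and 0.0707, in the order adult injury, adult control, neonate injury and neonate control. Their levels were 0.793, 1.32, 0.121 and 1.12 times the free-RNA level for Schwann-like cells, and 1.37, 1.43, 0.207 and 1.09 times it for endothelial-like cells. Myogenic progenitor-like, myofibre-like, keratinocyte-like and osteoblast-like cells held at most 0.659 per 10000 in any library. In most of these types the level could not be told from free RNA at this depth. The interval of the fold over free RNA lay above 1 for adult control endothelial-like cells, at 1.06 to 2.00, and for adult control pericyte-like cells, which held 1.80 per 10000 and stood 2.26 [1.61 to 3.26] times above it. Of the 139 Prg4 UMIs of those pericyte-like cells 1 cell held 50, and without it the level was 1.18 [0.951 to 1.46]. The interval also lay above 1 for neonate control macrophage-like cells, at 1.83 [1.09 to 3.29] times free RNA, and for the 20 adult injury smooth muscle-like cells, at 4.51 [1.78 to 10.6] times it, where 2 cells held all 10 UMIs. In neonate injury several types, among them Schwann-like and macrophage-like cells, lay below the level of blood and immune cells, which there rests on 4 UMIs.

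Within the fibroblast lineage as a whole (synovial lining-like, tenocyte-like, fibroblast-like, universal and activated fibroblast-like cells, 23 clusters) the adult injury cells held far less Prg4 than the adult control cells. The level was 4.75 [4.68 to 4.81] per 10000 in 1872 adult injury cells and 71.9 [71.7 to 72.2] in 3849 adult control cells. Adult injury thus stood 15.2-fold below adult control, a log2 ratio of -3.92 [-3.94 to -3.90]. Of 15483 genes with at least 50 UMIs in the 2 libraries, 150 had a lower ratio, the median gene stood at 0.02, and 15.4% were at least 2-fold lower. Prg4 thus lay among the 0.969% of genes with the lowest ratios.

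The size of that difference depended on which kinds of fibroblasts were compared. Tenocyte-like cells made up 118 of the 1872 lineage cells in adult injury and 2301 of 3849 in adult control, and synovial lining-like cells 5 and 77. When each cluster was instead given its share of UMIs in the adult control library, over clusters with 20 or more cells in both, the log2 ratio was -0.69, at 22.7 per 10000 in adult injury and 36.6 in adult control. Those 5 clusters held 210 of the 1872 adult injury and 3053 of the 3849 adult control cells, and neither the activated fibroblast-like nor the synovial lining-like cells. Over the same cells without weighting the ratio was -1.41, so both the choice of clusters and their weights moved it. Without synovial lining-like cells it was -3.27. The direction held in single clusters: Prg4 was lower in adult injury in 5 of 5 clusters with 20 or more cells in both libraries, with log2 ratios of -2.44 to -0.38. With clusters of 5 or more cells it was lower in 6 of 7, and in the Prss23-led cluster the interval of the ratio held 0. These cluster-level values were added after the data had been seen. The free-RNA level was also lower in adult injury, at 0.114 per 10000 against 0.793 in adult control, and with it subtracted the log2 ratio was -3.94. Macrophage markers summed to 0.365 per 10000 in adult injury and 0.0687 in adult control lineage cells, and their part in the result was not tested.

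Among tenocyte-like cells Prg4 stood at 20.3 per 10000 in adult injury and 57.7 in adult control, a log2 ratio of -1.51 [-1.56 to -1.46], or 2.84-fold lower. Of 12460 genes 633 had a lower ratio, and 9.84% were at least 2-fold lower. In the Angptl7-led cluster it stood at 55.9 [53.7 to 58.1] per 10000 in 25 adult injury cells and 72.7 [72.2 to 73.1] in 1037 adult control cells. In the Fmod-led cluster it stood at 4.999 [4.30 to 5.79] in 30 adult injury cells and 11.9 [11.6 to 12.3] in 375 adult control cells. In the Col22a1-led cluster it stood at 4.90 [4.40 to 5.43] in 59 adult injury cells and 10.0 [9.71 to 10.4] in 246 adult control cells. Each of the 3 clusters was lower in adult injury, by 0.38 to 1.25 on the log2 scale, and the Clu-led cluster had only 2 adult injury cells. With clusters given their adult control shares the log2 ratio was -0.43, and without the 1% of cells richest in Prg4 in each library it was -2.86. The adult injury value leans on its few richest cells, since the Angptl7-led cluster held 2484 of the 3322 Prg4 UMIs.

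Universal fibroblast-like cells showed a wider gap. They stood at 3.41 per 10000 in adult injury and 26.3 in adult control, a log2 ratio of -2.95 [-3.03 to -2.87], where 10.9% of 10801 genes were at least 2-fold lower, 9.66% were at least 2-fold higher, and 88 had a lower ratio than Prg4. In the Pi16-led cluster, which held 535 of the 549 adult control cells but 37 of the 204 adult injury cells, Prg4 stood at 4.91 [4.38 to 5.49] in adult injury and 26.6 [26.3 to 27.0] in adult control. The gap was thus narrower in that cluster, at -2.44 [-2.61 to -2.28], than in the whole type. Other adult injury cells of this type lay in a cluster led by Sfrp2, Opcml and Ace, with 0.326 per 10000 in 117 cells, and one led by Prss23, Ccn3 and Fbn1, with 7.63 in 50 cells. Synovial lining-like cells stood at 151 per 10000 in adult injury and 842 in adult control, a log2 ratio of -2.48, on 5 adult injury cells.

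**Figure D5:**
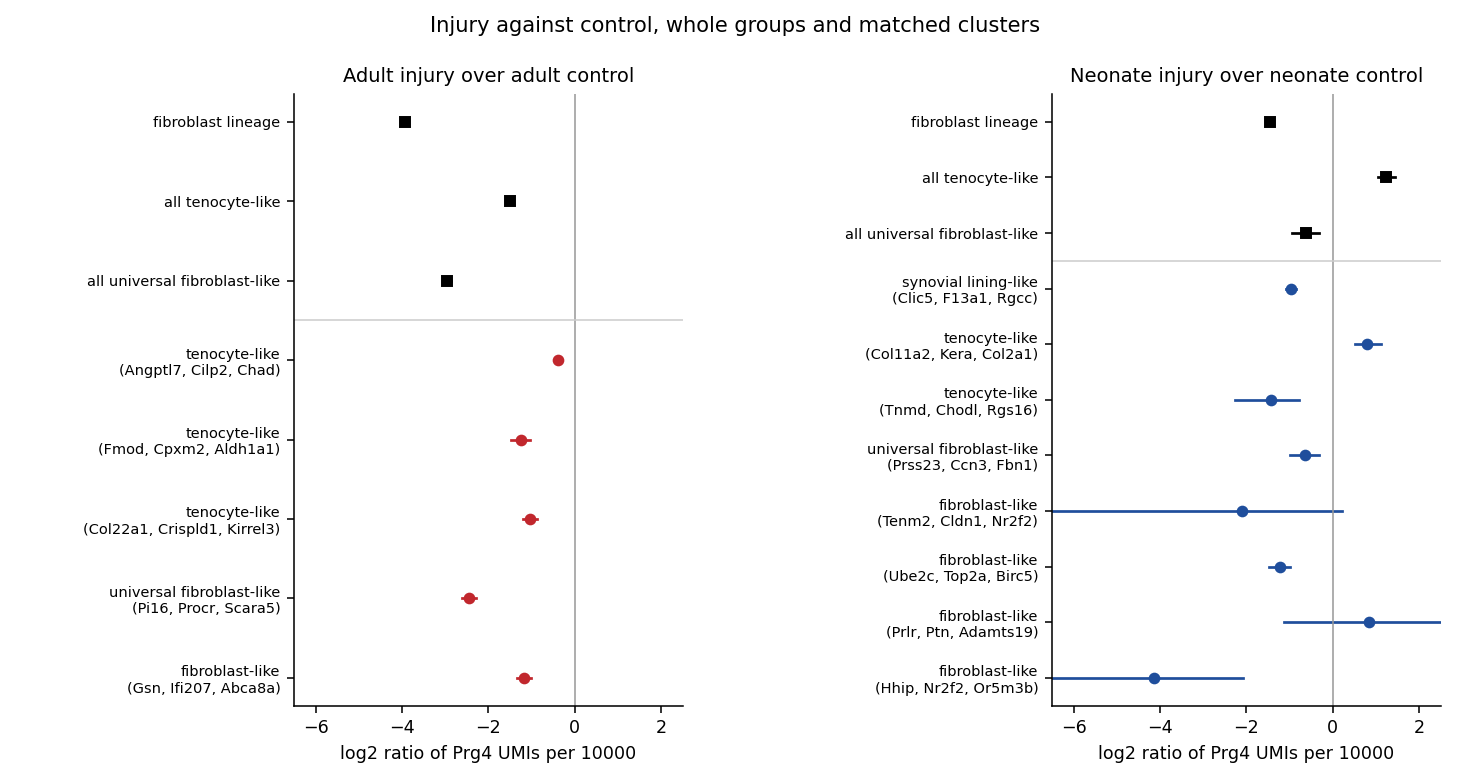
Log2 ratio of Prg4 UMIs per 10000, adult injury over adult control (left) and neonate injury over neonate control (right). Squares are whole groups, circles are single clusters with 20 or more cells in both libraries, bars are exact 95% intervals for counting error, and bars that reach the edge run on beyond it. All adult points lie left of 0, and on the neonatal side the whole tenocyte-like group and its Col11a2-led cluster lie right of 0 while the Tnmd-led cluster lies left.

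In the neonates the lineage held less Prg4 after injury. The level was 0.486 [0.468 to 0.504] per 10000 in 8218 neonate injury cells and 1.34 [1.31 to 1.37] in 3928 neonate control cells, a log2 ratio of -1.46 [-1.53 to -1.40]. Of 16235 genes 945 had a lower ratio, and 11.8% were at least 2-fold lower, against 8.22% at least 2-fold higher. Synovial lining-like cells made up 80 of the 8218 neonate injury and 107 of the 3928 neonate control cells, and without them the ratio was -0.35. With clusters given their neonate control shares it was -0.95. That value covered 8 clusters, with 4179 of the 8218 neonate injury and 1915 of the 3928 neonate control cells. Over the same cells without weighting the ratio was -1.54. Without the 2 lineage clusters whose leading genes held a cartilage or fat marker and no lineage marker, the lineage ratio was -1.91. The Col11a2-led tenocyte-like cluster, with Col2a1 and tenocyte markers among its leading genes, was kept there. In male-marked cells alone (those with UMIs of Y-linked genes but none of Xist) the level was 0.686 per 10000 in neonate injury and 1.42 in neonate control. The lower level in neonate injury thus stood in each of these forms, with a size that depended on the cells included. The median depth of lineage cells was 6217.5 UMIs in neonate injury and 10801 in neonate control, and its part in the result was not tested.

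Neonatal tenocyte-like cells as a whole ran the other way. Prg4 stood at 0.977 per 10000 in neonate injury and 0.412 in neonate control, a log2 ratio of 1.25 [1.06 to 1.44]. Of 11652 genes 596 had a higher ratio, and 8.15% were at least 2-fold higher. The 2 clusters differed in direction. In the Col11a2-led cluster Prg4 stood at 1.10 [1.04 to 1.17] in neonate injury and 0.629 [0.513 to 0.764] in neonate control, a log2 ratio of 0.80 [0.51 to 1.11]. In the Tnmd-led cluster it stood at 0.125 [0.0738 to 0.197] in neonate injury and 0.346 [0.298 to 0.399] in neonate control, a log2 ratio of -1.44 [-2.26 to -0.77].

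The Col11a2-led cluster supplied 1426 of the 1717 neonate injury cells and 149 of the 740 neonate control cells. With the clusters given their neonate control shares the sign turned, to a log2 ratio of -0.23. With tenocytes instead chosen cell by cell on their own marker UMIs it was 0.10. In male-marked cells the level was 0.782 per 10000 in neonate injury and 0.433 in neonate control, a log2 ratio of 0.86. Cartilage markers summed to 10.1 per 10000 in neonate injury and 5.45 in neonate control tenocyte-like cells, and their part in the result was not tested. The higher whole-group level in neonate injury therefore went with more cells of the Prg4-richer cluster.

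Synovial lining-like cells stood at 14.4 per 10000 in neonate injury and 28.1 in neonate control, a log2 ratio of -0.97 [-1.08 to -0.85], where 10.7% of 6124 genes were at least 2-fold lower, 5.58% were at least 2-fold higher, and 705 had a lower ratio than Prg4. In male-marked cells alone the levels were 26.5 [23.3 to 30.2] in 13 neonate injury cells and 28.9 [28.0 to 29.8] in 95 neonate control cells, so the gap was small there. With each library clustered alone the direction turned, at 16.0 per 10000 in 64 neonate injury cells and 14.6 in 223 neonate control cells, a log2 ratio of 0.13, and at resolution 2 the ratio was -0.57. Universal fibroblast-like cells stood at 0.194 per 10000 in neonate injury and 0.2995 in neonate control, a log2 ratio of -0.62 [-0.94 to -0.31], where 6.45% of 11361 genes were at least 2-fold lower and 6.17% at least 2-fold higher. That ratio turned to 0.91 with doublets kept and 0.085 with each library clustered alone. Neither type thus gave a direction that held under all the alternatives. Of 8 clusters with 20 or more cells in both neonatal libraries, Prg4 was lower in neonate injury in 5, higher in 1 and within counting error in 2.

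Of the 3 comparisons, the one between ages gave the widest lineage difference. In uninjured tendon the lineage level was 71.9 per 10000 in adult control and 1.34 in neonate control, a log2 ratio of 5.75 [5.71 to 5.79] or 53.8-fold. Of 15825 genes 38 had a higher ratio, and 11.4% were at least 2-fold higher. In tenocyte-like cells Prg4 stood at 57.7 in adult control and 0.412 in neonate control, a log2 ratio of 7.13 [6.96 to 7.30]. There 24 of 12978 genes had a higher ratio and 16.2% were at least 2-fold higher. The adult and neonatal tenocyte-like cells shared no cluster of 20 or more cells, so this ratio sets different cell states side by side.

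Synovial lining-like cells, which did share a cluster, stood at 842 per 10000 in adult control and 28.1 in neonate control, a log2 ratio of 4.91 [4.86 to 4.95]. There 25 of 7408 genes had a higher ratio and 6.06% were at least 2-fold higher. Universal fibroblast-like cells stood at 26.3 in adult control and 0.2995 in neonate control, a log2 ratio of 6.46 [6.29 to 6.63], where 13 of 11557 genes had a higher ratio and 10.7% were at least 2-fold higher. No cluster of that type had 20 or more cells in both libraries, so this ratio too sets different cell states side by side. In its Prss23-led cluster Prg4 stood at 6.10 in 13 adult control and 0.445 in 382 neonate control cells, a log2 ratio of 3.79 [3.39 to 4.16]. Prg4 was thus higher in adult control in each of these 3 types, and in both clusters with 20 or more cells in the 2 libraries. The free-RNA level was 0.793 per 10000 in adult control and 0.0643 in neonate control. After it was subtracted the lineage ratio was 5.80 and the tenocyte-like ratio 7.36. Adult control cells carried female and neonate control cells male sex markers, and the part of sex in the age difference cannot be told apart from age.

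Genes known to act upstream of lubricin were set beside Prg4 in the same comparisons. Of the 16 regulators and upstream signals, 1 stood 2-fold or more above and 3 stood 2-fold or more below adult control in adult injury lineage cells. Over all genes 16.7% stood 2-fold or more above and 15.4% below. The list's median log2 ratio was 0.10 against 0.02 over all genes. Creb5 stood at 4.13 per 10000 in adult injury and 5.32 in adult control, a log2 ratio of -0.36. Gdf5, a joint-forming BMP-family ligand, had a log2 ratio of -3.10, Foxo1, a factor that maintains superficial cartilage in mice, one of -1.89, and Il1r1, the interleukin-1 receptor, one of 1.23. In the neonatal lineage 0 of 16 stood 2-fold or more above control after injury and 1, Gdf5, below it, against 8.22% and 11.8% of all genes, and the median was -0.05. There Creb5 stood at 3.44 per 10000 in neonate injury and 4.28 in neonate control. Between ages 3 stood 2-fold or more higher in adult control and 1 lower, against 11.4% and 16.9% of all genes, and the median was 0.27. The widest ratios were those of Tgfb1 at 1.58, Gdf5 at 1.46 and Nfatc2 at -1.19 on the log2 scale. Creb5 stood at 5.32 in adult control and 4.28 in neonate control. None of these 16 RNAs had an age ratio as wide as that of Prg4, but only 38 of 15825 genes had a higher one. The part of these RNAs in the Prg4 difference was not tested.

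Across clusters Creb5 and Prg4 did not run in 1 order. Creb5 stood at 16.7 per 10000 in adult control, 22.7 in neonate injury and 15.1 in neonate control synovial lining-like cells, and at 14.3 in adult injury and 16.2 in adult control cells of the Pi16-led cluster. In the Angptl7-led tenocyte-like cluster, among the richest in Prg4, it stood at 0.900 in adult injury and 0.527 in adult control. In the Clu-led cluster of adult control it stood at 3.27. Cells with much Creb5 thus held much Prg4 or rather little, and 1 of the Prg4-rich tenocyte-like clusters held Creb5 at a low level.

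The partners and receptors of lubricin include Cd44, a hyaluronan receptor that lubricin can bind, and Comp, a cartilage matrix protein that binds it. Of 9 measured members of that list, 3 stood 2-fold or more above and 3 below adult control in adult injury lineage cells, against 16.7% and 15.4% of all genes, and the median log2 ratio was -0.51. Cd44 stood at 15.8 per 10000 in adult injury and 2.94 in adult control, a log2 ratio of 2.43, and the hyaluronan synthase gene Has2 had a log2 ratio of 2.39. Comp stood at 1.33 in adult injury and 21.5 in adult control, a log2 ratio of -4.01. In the lineage Comp thus lay on the same side as Prg4, and the hyaluronan genes Cd44 and Has2 on the other. In tenocyte-like cells alone Comp stood at 16.9 in adult injury and 35.5 in adult control, a log2 ratio of -1.07, and Cd44 had a log2 ratio of 1.00. In the neonatal lineage 0 of 10 stood 2-fold or more above control after injury and 2, Hapln1 and Has1, below it, against 8.22% and 11.8% of all genes, and the median was 0.09. Cd44 stood at 8.17 in neonate injury and 8.04 in neonate control. Between ages 2 of 9 stood 2-fold or more higher in adult control and 4 lower, against 11.4% and 16.9% of all genes, and the median was -0.80. Comp had a log2 ratio of 5.19, the receptor gene Tlr4 one of 1.56, and Tnfaip6, whose protein cross-links hyaluronan, one of -1.75.

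Of the 5 proteases known to cut lubricin, 2 were measured in the adult lineage. Ctss, the lysosomal protease cathepsin S, stood at 0.165 per 10000 in adult injury and 0.00984 in adult control, a log2 ratio of 4.05, and Ctsb, cathepsin B, at 5.97 in adult injury and 3.55 in adult control, a log2 ratio of 0.75. Ctss is abundant in macrophages, whose markers were also higher in adult injury lineage cells (0.365 per 10000 against 0.0687 in adult control), and their part in the result was not tested. In the neonatal lineage Ctss had a log2 ratio of 1.31, and the mast cell tryptase Tpsb2 one of -2.82 at levels of 0.00516 in injury and 0.0369 in control. Among proteins that share the hemopexin-like or somatomedin B-like domains, 0 of 5 measured stood 2-fold or more above adult control in adult injury and 2 stood below it, against 16.7% and 15.4% of all genes. Vtn, the adhesion protein vitronectin, had a log2 ratio of -1.80 there and Enpp2, the lysophospholipase D autotaxin, one of -1.76. Vtn stood at 0.0120 in adult injury and 0.0419 in adult control, so it was scarce in both.

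Genes of gliding and superficial layers lay on the same side as Prg4 in the adult lineage. Of 11 genes, 0 stood 2-fold or more above adult control in adult injury and 10 stood below it, against 16.7% and 15.4% of all genes, and the median log2 ratio was -2.62 against 0.02 over all genes. Angptl7, a secreted angiopoietin-like protein, stood at 0.782 per 10000 in adult injury and 56.2 in adult control, a log2 ratio of -6.17. Clu, the secreted chaperone clusterin, stood at 0.206 in adult injury and 14.3 in adult control, a log2 ratio of -6.12, and Chad, the matrix protein chondroadherin, had a log2 ratio of -5.40. In tenocyte-like cells alone 0 of the 11 stood 2-fold or more above and 4 below adult control, against 11.2% and 9.84% of all genes, and the median was -0.63, so the difference was smaller within that type. Several of these genes lead or mark the tenocyte-like clusters that were scarce in adult injury, and some were put in the list with earlier results known.

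In the neonatal lineage 4 of the 11 stood 2-fold or more above control after injury and 2 below it, against 8.22% and 11.8% of all genes, and the median was 0.07. In neonatal tenocyte-like cells 6 stood above and 3 below, against 8.15% and 11.5% of all genes, and the median was 1.14. Those above included Angptl7 with a log2 ratio of 2.13 and Vit, the matrix protein vitrin, with 2.12. Cilp, a matrix protein of cartilage and tendon, lay on the other side with -2.04. Between ages 9 of 11 stood 2-fold or more higher in adult control lineage cells and 1 lower, against 11.4% and 16.9% of all genes, and the median was 3.32. Angptl7 had a log2 ratio of 10.39, Chad 8.59 and Clu 6.37. The 1 gene on the other side, named after its value was seen, was Tppp3, a tendon sheath marker, at -1.30. The adult control lineage held more of most genes of this list, as it did of Prg4. Some of the list was chosen with earlier results of these data known. Angptl7, Chad and Clu are also among the leading genes of tenocyte-like clusters made up of adult cells. The counts between ages therefore describe the list and give no independent support.

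Over 49 combinations of cell type and library with 50 or more cells, 21 adult and 28 neonatal, the genes whose level followed that of Prg4 most closely were Ccn2 with a Pearson r of 0.842, Anxa8 with 0.835, Ngef with 0.829 and Vit with 0.815. The next were Slurp1, Kctd16, Pcolce2, Thrb, Bnip3 and Nupr1, down to an r of 0.784, among 9453 genes compared on a log2 scale. Ccn2, a matricellular growth factor, stood at 35.3 per 10000 in synovial lining-like and 22.6 in tenocyte-like cells of adult control, and at 3.25 in synovial lining-like cells of neonate control. Within the 28 neonatal combinations r was 0.737 for Ccn2, 0.797 for Anxa8 and 0.859 for Ngef. The points share libraries and depth, and the values describe likeness only.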

How the data were processed

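Single cells of 4 Achilles tendon libraries were measured with droplet sequencing. The deposited matrices hold whole-number UMI counts per gene and barcode, made by the authors with Cell Ranger (version 8.0.1, per the file headers) on GRCm39, per the submitters' processing notes. Reads without a unique gene assignment are not counted by that tool, and free RNA is not removed.

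The cell filter kept barcodes with 500 or more genes, 1000 or more UMIs and no more than 15% mitochondrial UMIs. Doublets were removed by Scrublet score at 0.8% per 1000 barcodes. Cells were clustered jointly without Prg4 in scanpy 1.11.5 (2000 variable genes, 30 components, 15 neighbours, Leiden resolution 1), fibroblast-lineage cells were clustered again, and clusters were named from marker lists of 25 types. Of 49 clusters 4 stayed unnamed. Thresholds for naming were chosen once the data had been seen, Prg4 levels included. Prg4, the marker lists and the gene lists were chosen with earlier results of these data known.

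UMIs were summed per type and library. Ratios carry 0.5 added counts, and 2-fold calls need 50 or more UMIs in the libraries compared. Poisson and binomial intervals are exact (scipy 1.17.1, numpy 2.4.6, pandas 2.3.3, Python 3.11.15). Only the ratios and their intervals were tested on simulated data, drawn as Poisson counts without spread between cells. With 1 library per group no p-value was computed. Named genes were Prg4, Creb5, Cd44, Comp, Clu and Vtn, up to 3 members per list with the largest ratios, and the 10 genes most like Prg4. Alternatives were another cell filter, doublets kept, Prg4 kept in clustering, resolution 2, a marker gate on single cells, clustering per library, free RNA subtracted, means over cells, trimmed cells, 5 added counts, no shared barcodes and cells split by sex markers.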

Additional observations from a re-analysis of the deposited data

Results flagged for a closer look

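The Prg4 ratio of tenocyte-like cells pointed in opposite directions at the 2 ages, with a log2 ratio of -1.51 for adult injury over adult control and 1.25 for neonate injury over neonate control. With 1 library per group this difference between ages was not tested. The neonatal sign turned when clusters were given their neonate control shares, as given above.

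Prg4 appeared in cells outside the fibroblast lineage and cartilage above the free-RNA level of their own library. Lymphatic endothelial-like cells of adult injury held 0.578 [0.452 to 0.728] per 10000 in 71 cells, against 0.114 [0.0640 to 0.189] in blood and immune cells. Of their 72 UMIs 1 cell held 41, 9 cells held any, and without that cell the level was 0.260 [0.177 to 0.370]. In adult control the same type held 0.682 per 10000, within counting error of free RNA there. Smooth muscle-like cells of neonate control held 0.770 [0.655 to 0.899] per 10000, 11.7 times the free-RNA level, with a UMI in 5.65% of 230 cells. The richest cell held 120 of the 160 UMIs at 30.9 per 10000, and without it the level was 0.196 [0.140 to 0.267], against 0.0643 [0.0393 to 0.0993] in blood and immune cells. In neonate injury none of 148 such cells held a Prg4 UMI.

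Barcodes that failed the cell filter held Prg4 at 1.35 [1.05 to 1.72] per 10000 in adult injury, 13.4 [12.5 to 14.4] in adult control, 0.0979 [0.0560 to 0.159] in neonate injury and 0.614 [0.436 to 0.839] in neonate control. Except in neonate injury, where the intervals overlap, these levels stood above those of blood and immune cells of the same library.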

How the results depend on the processing

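The lineage and tenocyte-like Prg4 ratios kept their sign under every alternative run for them, except the neonatal tenocyte-like ratio, while their size depended on the cells included. In the order adult injury, neonate injury (each over its control) and adult over neonate control, log2 ratios of the lineage were -3.97, -1.38 and 5.86 with the stricter filter (1000 genes, 2000 UMIs, 10% mitochondrial), -3.67, -1.39 and 5.82 at resolution 2, -3.78, -1.38 and 5.82 with the marker gate, -3.49, -1.16 and 6.00 with each library clustered alone, -3.63, -1.29 and 5.67 as means over cells, and -3.84, -1.90 and 5.64 without the top 1% of cells. For adult injury the lineage ratio was -3.94 with doublets kept and -3.96 with Prg4 clustered. Split by sex markers, the lineage ratio was -1.05 for neonate injury, with male-marked cells on both sides. The same split gave 5.66 between ages, but there it set female-marked adult control cells against male-marked neonate control cells. It therefore cannot separate sex from age. With free RNA subtracted the ratio between ages was 5.80. Of the alternatives chosen after seeing the data, weighting clusters by their share in the second library gave -0.69, -0.95 and 4.92, leaving out synovial lining-like cells -3.27, -0.35 and 6.55, and counting unnamed clusters rich in fibroblast markers -3.98, -1.08 and 6.14. The weighted -0.95 covered 4179 of 8218 neonate injury and 1915 of 3928 neonate control lineage cells. The weighted 4.92 covered 2 clusters, with 131 of 3849 adult control and 249 of 3928 neonate control lineage cells. Of those 131 cells 77 were synovial lining-like. Without weighting the same cells gave -1.54 and 5.89. The weighted values thus describe the shared clusters and not the whole lineage. Leaving out the 2 clusters with an outside marker and no lineage marker among their leading genes gave -1.91 for neonate injury and 5.23 between ages.

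For tenocyte-like cells of adult injury, the ratio was -1.74 with the stricter filter, -1.77 with Prg4 clustered, -1.99 at resolution 2, -1.61 with the gate, -1.86 as a mean over cells, -2.86 without the top 1%, -0.43 with clusters weighted and -1.56 without Clic5, Tspan15 or Htra4 UMIs. For neonate injury it was 1.83 with doublets kept, 0.10 with the gate, 1.50 with libraries clustered alone, 0.67 without the top 1%, 0.86 split by sex markers and -0.23 with clusters weighted, and the cause was not tested. Between ages it was 7.87 with doublets kept, 6.25 with the gate, 7.34 with libraries clustered alone, 7.36 with free RNA subtracted, 7.31 as a mean over cells and 6.84 without Clic5, Tspan15 or Htra4 UMIs. It could not be weighted by cluster, because no cluster had 20 cells in both libraries.

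Ratios of the other types were put through the alternatives after seeing the data. For synovial lining-like cells they ran from -3.12 to -2.42 for adult injury, -3.65 to 0.13 for neonate injury and 3.17 to 5.56 between ages, and for universal fibroblast-like cells from -3.46 to -2.13, -1.13 to 0.91 and 6.24 to 7.88. Both neonatal injury ratios thus changed sign, and the cause was not tested. Clustering each library alone was likewise added afterwards for the levels. Levels per 10000 that moved by over 1.5 times ran, for synovial lining-like cells, from 544 to 841 in adult control and 14.6 to 27.5 in neonate control, for tenocyte-like cells from 0.245 to 0.778 in neonate control, for universal fibroblast-like cells from 2.68 to 6.03 in adult injury, 0.129 to 0.234 in neonate injury and 0.124 to 0.304 in neonate control, for fibroblast-like cells from 3.08 to 14.1 in adult injury, 0.164 to 0.403 in neonate injury and 0.278 to 1.67 in neonate control, and for chondrocyte-like cells from 0.648 to 8.30 in neonate injury. With doublets kept the free-RNA level was 2.25 per 10000 in adult control and 1.08 in neonate control, and no synovial lining-like cluster was named in the neonates. The free-RNA level of neonate injury rests on 4 UMIs and ran from 0.0262 to 0.0800. No paired analysis was possible because each group has 1 library.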

Other observations

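Some cells that markers did not name also held Prg4. A cluster of 301 adult injury cells led by Mmp9, Acp5 and Atp6v0d2, genes known from bone-resorbing osteoclasts, held 1.88 [1.73 to 2.04] Prg4 UMIs per 10000 and 2.73% of the Prg4 UMIs of that library. Over all libraries a fibroblast marker was found in 80.7% of the cells of that cluster on average. An activated fibroblast marker was found in 62.5% and a macrophage marker in 45.0%. Its Prg4 thus cannot be assigned to osteoclast-like cells alone. A neonate control cluster of 1485 cells led by Acta1, Mylpf and Cdkn1c held 0.178 [0.159 to 0.199] per 10000. There a fibroblast marker was found in 96.0% of cells on average and a myofibre marker in 36.4%.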
